A study of Mus musculus with 14 samples.

Results

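The response of APOE4 retinal microglia to microbead injection was described across all expressed genes by comparing the 3 libraries labelled APOE E4 microbead with the 4 labelled APOE E4 sham, 7 of the 14 libraries of the series. Each library came from 1 mouse retina at 12 weeks of age. All 7 carried the genotype APOE E4/E4, and the reference groups from APOE E3/E3 mice were 4 sham and 3 microbead libraries. Cells had been sorted as positive for CD11b and Fcrls and negative for Ly6c, and 100 to 600 cells were obtained from a retina. The labels do not say whether the retinas came from separate animals, so p-values measure the spread between these samples, which may in part be technical.

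Microglia are the resident macrophages of the retina and brain. In the steady state they express a homeostatic set of genes that depends on TGF-beta, such as P2ry12 and Tmem119, and near injury or dying neurons they can take up a disease-associated state with high lysosomal and lipid-handling genes, in which TREM2 and apolipoprotein E take part. Type I interferon drives a separate antiviral set through factors that include the IRF family. Microbeads injected into the front of the eye block fluid outflow and raise eye pressure, a model of glaucoma. Human APOE4 is the risk allele for Alzheimer's disease.

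The 7 libraries held 453429 to 657209 estimated reads, of which 45.3% to 59.0% lay on 12 genes at satellite repeats. The satellite share was 49.97% ± 5.14 (SD, n = 4) in sham and 55.8% ± 3.31 (SD, n = 3) in microbead, and 237864 to 289398 reads a library remained outside these genes. Levels below are CPM, counts per 1000000 reads after TMM scaling (which sets libraries to a common level for most genes). Of 35519 genes, 7609 had enough reads to be tested. All 14 microglial markers listed were tested. Together they came to 19140 ± 1499 CPM (SD, n = 4) in sham and 20310 ± 1218 (SD, n = 3) in microbead, with overlapping groups. In bulk samples such as these, fewer cells of a type and less RNA per cell cannot be told apart. Apoe had 5 reads over the sham and 8 over the microbead libraries and was not tested. Reads were assigned to mouse transcripts, so these counts do not measure expression of a human APOE allele.

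In APOE4 microglia 17 of the 7609 genes passed an adjusted p of 0.05 (0.223%). Of these, 15 were higher after microbeads (0.197%) and 2 were lower (0.0263%). They comprised a complement component, 2 Fc receptors and a subunit of complement receptor 3, interferon-induced genes, inhibitory immune receptors, an adenosine receptor and 2 lysosomal proteins, while a prostaglandin-degrading enzyme and a zinc finger gene were lower. In all 17 the sham and microbead libraries did not overlap, which was also true of 5.01% of all genes in the higher and 4.09% in the lower direction. The fold change reached 2-fold in 15 of the 17. Counts of called members in the lists below are to be read against 0.197% of all genes called higher and 0.0263% called lower. With only 2 genes lower in all, 0 lower in a list is near the background. At an unadjusted p under 0.05 there were 493 genes, 275 higher and 218 lower, and the median log2 fold change of all genes was -0.004.

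**Figure D1:**
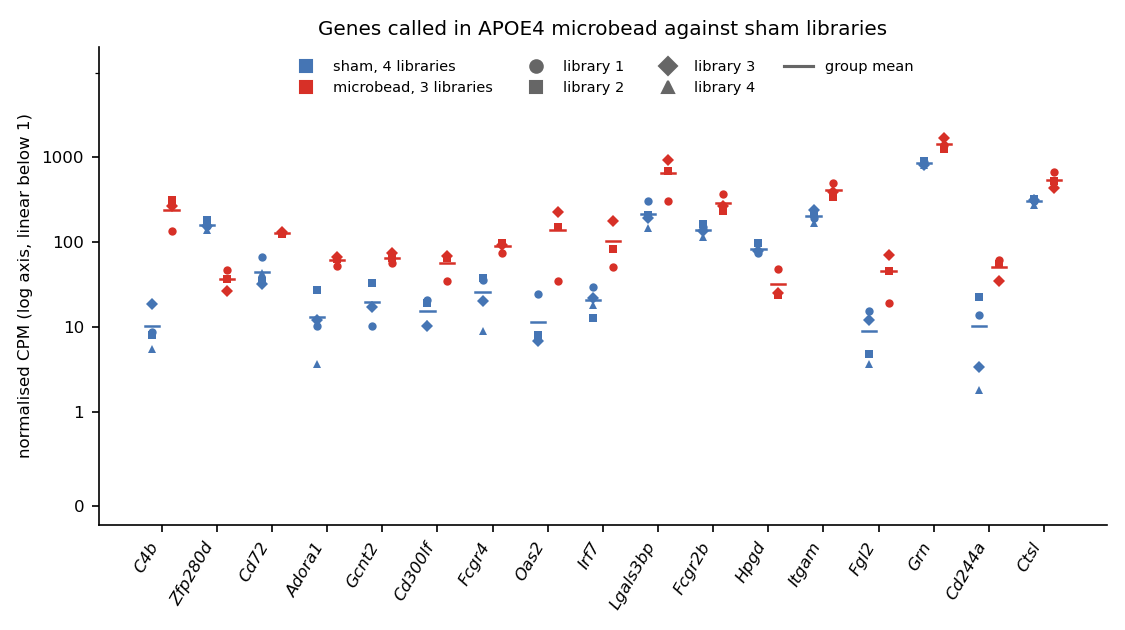
Normalised CPM (log axis, linear below 1) of the 17 genes called, in the 4 sham (blue) and 3 microbead (red) APOE4 libraries; shapes give the library number and lines the group mean. The groups do not overlap in any of the 17, and C4b shows the widest gap, from 5.44 to 18.8 in sham and 134 to 318 in microbead.

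The count of 17 depended on single libraries and on scaling. It was 2, C4b and Zfp280d, without APOE4 sham 3, APOE4 sham 4, APOE4 microbead 2 or APOE4 microbead 3, and 6 without APOE4 sham 2. It was 11 without APOE4 sham 1, APOE3 sham 2 or APOE3 sham 3, and 10 without APOE3 sham 4. With library totals in place of TMM, 3 genes passed, 2 higher and 1 lower, and on the deposited TPM 2 passed, 1 in each direction. These 2 scalings moved the median of all genes to -0.22 and -0.29, so each list median below is to be read against the median of all genes.

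C4b, complement component 4B of the classical pathway (ENSMUSG00000073418, GRCm38 chr17:34728380-34743882, minus strand), had the smallest p. It stood at 8.64, 7.96, 18.8 and 5.44 CPM in sham libraries 1 to 4 and at 134, 318 and 264 in microbead libraries 1 to 3. Every microbead library lay several-fold above every sham library, with library 1 the lowest of them. The log2 fold change was 4.52 ± 0.45 (SE, adjusted p = 0.000196). Of the 31-base words in its main transcript, C4b-201, 48.8% also occur in C4a. C4a is a near-identical gene absent from the gene counts under that name, so its reads may have been counted as C4b. The 2 cannot be told apart in full. C4b-201 took 22.4 estimated reads over the sham and 403 over the microbead libraries.

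Itgam, the alpha chain of complement receptor 3 and the CD11b on which the cells were sorted (chr7:128062640-128118491, plus strand), rose by 1.01 ± 0.22 (SE, adjusted p = 0.0458). Its levels were 194, 217, 243 and 167 CPM in sham and 500.1, 345 and 392 in microbead. All 3 microbead libraries exceeded the highest sham library. Itgam shares 75.3% of the words of its main transcript with other genes, chiefly the predicted gene Gm49368, which took 3 reads in sham and 2 in microbead. Of 12 complement genes tested, C4b and Itgam were the 2 called, none was lower, and the list median was 0.37. Itgb2, the partner chain of Itgam, stood at 244, 249.9, 246 and 176 CPM in sham and 312, 318 and 301 in microbead (0.44 ± 0.20, adjusted p = 0.714). C3ar1, a receptor for a C3 fragment, had a log2 fold change of 0.47 ± 0.22 (adjusted p = 0.748). Among the C1q chains, C1qc was at 0.61, C1qa at 0.23 and C1qb at 0.17 on the log2 scale, none called.

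Both an activating and an inhibitory Fc receptor rose. Fcgr4, an activating receptor for IgG (chr1:171018920-171029761, plus strand), stood at 36.3, 38.2, 20.5 and 9.07 CPM in sham and 75.6, 99.03 and 93.07 in microbead (1.76 ± 0.35, adjusted p = 0.0275). The inhibitory receptor Fcgr2b was at 150.4, 162, 135.0 and 116 in sham and 374, 235 and 266 in microbead (1.04 ± 0.22, adjusted p = 0.0457). For both, the lowest microbead library lay above the highest sham library. Fcgr2b shares 16.3% of the words of its main transcript with Fcgr3. Fcgr3 itself had 191, 231, 198 and 152 reads in the sham and 193, 242 and 220 in the microbead libraries. The other members included Fcgr1, a high-affinity receptor (0.69 ± 0.20, adjusted p = 0.216). The 7 tested genes of the list had a median of 0.69, with 2 called higher and 0 lower, where 0.197% and 0.0263% of all genes were.

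Of the 107 interferon-related genes tested in 5 lists, 94 had a log2 fold change above 0, where 49.5% of all genes did, and 3 passed the test, all of them higher. In 27 of the 107 the microbead libraries lay wholly above the sham libraries, against 5.01% of all genes, and in none wholly below. Irf7, the transcription factor that amplifies type I interferon production (chr7:141262706-141266481, minus strand), stood at 29.4, 12.7, 22.2 and 18.1 CPM in sham and 50.4, 83.05 and 176 in microbead. Oas2, which makes the second messenger that activates RNase L, was at 24.2, 7.96, 6.84 and 7.26 in sham and 34.9, 150.1 and 229 in microbead. Lgals3bp, a secreted glycoprotein induced by interferon, was at 303, 210.1, 193 and 145 in sham and 308, 696 and 937 in microbead. In all 3 genes microbead library 1 was the lowest microbead library and lay above every sham library, by the least in Lgals3bp. Irf7 rose by 2.33 ± 0.44 (SE, adjusted p = 0.0359), Oas2 by 3.57 ± 0.58 (adjusted p = 0.0275) and Lgals3bp by 1.61 ± 0.31 (adjusted p = 0.0457). Each of the 3 lost its call without APOE4 sham 2, sham 3, sham 4, microbead 2 or microbead 3, where their adjusted p reached up to 0.633 for Oas2, 0.779 for Irf7 and 0.869 for Lgals3bp over all alternatives.

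Differences between the 5 lists were not tested. The OAS and IFIT antiviral proteins, which block viral RNA, had a median of 1.43 over 12 genes, with 1 called (Oas2). In that list Ifit2 stood at 12.1, 15.9, 8.55 and 5.44 CPM in sham and 60.08, 57.5 and 68.1 in microbead (2.52 ± 0.66, adjusted p = 0.217). Oasl1 was at 2.57 ± 0.65 and Oasl2 at 1.74 ± 0.54 (adjusted p = 0.12 and 0.387). The interferon-inducible GTPases had a median of 0.94 over 9 genes with 0 called; Irgm1, which acts in autophagy of intracellular pathogens, was at 1.22 ± 0.29 (adjusted p = 0.0748). The nucleic acid sensors had a median of 0.77 over 21 genes with 0 called. Among them Ifi213, of the DNA-sensing Ifi200 family, stood at 15.6, 7.96, 17.1 and 5.44 CPM in sham and 11.6, 73.5 and 91.4 in microbead (2.35 ± 0.52, adjusted p = 0.0748). Its microbead library 1 lay within the sham range and the other 2 far above it. Other effectors had a median of 0.76 over 47 genes, 44 of them above 0 and 1 called (Lgals3bp), with Bst2, which tethers virions to the membrane, at 1.08 ± 0.29 (adjusted p = 0.171). Genes of the signalling pathway itself had a median of 0.26 over 18 genes and 1 called (Irf7), with Stat2 at 0.92 ± 0.26 and the receptor chains Ifnar1 and Ifnar2 at -0.02 and 0.06. On the deposited TPM the median of this signalling list was -0.07 and that of the other 4 lists stayed above 0. Members of the Ifi200, Oas and guanylate-binding families are similar in sequence, so their single values are uncertain.

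The summed level of the 139 genes in these lists was 5686, 5564, 4747 and 4370 CPM in the sham and 6074, 8390 and 10020 in the microbead libraries. The groups did not overlap, and microbead library 1 lay nearest to sham. Of the OAS and IFIT genes alone, the sum was 296, 225, 133 and 127 in sham and 328, 652 and 898 in microbead. In the same libraries the order was different for the lysosomal genes described below, where library 1 was not the lowest.

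The promoters of these genes were searched for the interferon-stimulated response element, which binds complexes that hold IRF factors, as the letters GAAA, any 2 bases, GAAA on either strand, in RefSeq promoters of 250 bases before to 50 after the start (GRCm38.p6); overlapping matches were counted separately. Of 85 interferon-list genes with a promoter in the table, 40 held a match (47.1%), against 256 of 5908 tested genes (4.33%) and 1079 of all 27025 genes (3.99%). The share was 7 of 7 for the interferon-inducible GTPases, 6 of 9 for the OAS and IFIT genes, 16 of 37 for other effectors, 9 of 16 for sensors and 2 of 16 for signalling genes. Of 15 called genes with a promoter in the table, 1 held these letters, Fcgr4, and C4b and Oas2 are not in the table. A match is a description of the letters and not a site of binding. The stretches below run 5′ to 3′ on the gene's strand and end at or before the start; they show the called gene with a match, then the 2 interferon-list genes nearest the threshold that have one, with the matching letters in capitals.
Fcgr4, chr1:171018793-171018922, plus strand: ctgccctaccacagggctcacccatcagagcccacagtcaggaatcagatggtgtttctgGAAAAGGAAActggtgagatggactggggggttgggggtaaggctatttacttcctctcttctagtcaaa
Ifi213, chr1:173599276-173599405, minus strand: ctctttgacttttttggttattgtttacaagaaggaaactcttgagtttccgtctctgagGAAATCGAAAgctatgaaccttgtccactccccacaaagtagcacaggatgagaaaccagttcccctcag
Irgm1, chr11:48871421-48871510, minus strand: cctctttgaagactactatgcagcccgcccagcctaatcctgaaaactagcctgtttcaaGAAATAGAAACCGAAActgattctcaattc
In Fcgr4 and Ifi213 the single match began 73 bases before the start, and in Irgm1 2 overlapping matches began 30 bases before it. Ifi213 and Irgm1 did not pass the test (adjusted p = 0.0748 each).

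Class I antigen presentation, by which cells display peptides to CD8 T cells, had a median of 0.45 over 23 genes, 22 of them above 0 and 0 called. H2-D1 stood at 814, 904, 668 and 490 CPM in sham and 1070, 1160 and 1421 in microbead (0.76 ± 0.20, adjusted p = 0.155). The peptide transporter Tap1 was at 1.13 ± 0.29 (adjusted p = 0.12) and the class I transactivator Nlrc5 at 1.45 ± 0.39 (adjusted p = 0.171). The class I genes are near-identical to each other, so reads between them are uncertain. Class II presentation had a median of 0.30 over 12 genes with 0 called, and on the deposited TPM -0.03. Its member with the smallest p was cathepsin S, Ctss, at 2894, 2988, 2858 and 2492 CPM in sham and 4555, 4194 and 3839 in microbead (0.58 ± 0.17, adjusted p = 0.25). The groups did not overlap for H2-D1 or Ctss.

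Receptors that restrain immune cells were among the genes called. Cd72, an inhibitory lectin that binds Sema4D, stood at 67.4, 35.02, 32.5 and 43.5 CPM in sham and 128, 126 and 131 in microbead (1.52 ± 0.27, adjusted p = 0.0104). Its 3 microbead libraries were close together and all well above the sham libraries. Cd72 shares 20.4% of the words of its main transcript with Tesk1. Cd300lf, a receptor for lipids with inhibitory motifs, was at 20.8, 19.1, 10.3 and 10.9 in sham and 34.9, 65.5 and 68.1 in microbead (1.87 ± 0.37, adjusted p = 0.0275). Cd244a, a receptor of the SLAM family, was at 13.8, 22.3, 3.42 and 1.81 in sham and 62.02, 55.9 and 34.9 in microbead (2.24 ± 0.48, adjusted p = 0.0489). The list of inhibitory and paired receptors had 25 genes tested, 2 called higher (Cd72 and Cd300lf), 0 lower and a median of 0.40, with -0.05 on the deposited TPM. Lag3, an inhibitory receptor first known from T cells, was at 0.77 ± 0.22 (adjusted p = 0.215) and Siglec1, a sialic acid receptor, at 1.11 ± 0.35 (adjusted p = 0.306). Fgl2, a fibrinogen-like protein that can bind inhibitory Fc receptors, stood at 15.6, 4.78, 12.0 and 3.63 in sham and 19.4, 46.3 and 71.5 in microbead (2.34 ± 0.50, adjusted p = 0.0466). For Cd300lf and Fgl2 microbead library 1 lay nearest to the sham range, and for Cd244a library 3 did.

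Adora1, the A1 adenosine receptor, which lowers cyclic AMP (chr1:134199223-134235431, minus strand), rose by 2.16 ± 0.39 (SE, adjusted p = 0.0104). It was at 10.4, 27.1, 12.0 and 3.63 CPM in sham and 52.3, 63.9 and 66.5 in microbead. Hpgd, the enzyme that inactivates prostaglandins (chr8:56294585-56321043, plus strand), fell (log2 fold change -1.38 ± 0.30 SE, adjusted p = 0.0457). Its levels were 74.3, 97.1, 78.6 and 83.4 in sham and 48.5, 23.96 and 24.9 in microbead. Neither gene had overlapping groups. These 2 were the genes called, 1 in each direction, among 21 of the purine and prostaglandin list, whose median was -0.14. In that list P2ry12, the ADP receptor typical of resting microglia, stood at 652, 759, 805 and 727 CPM in sham and 554, 529 and 562 in microbead (-0.42 ± 0.21, adjusted p = 0.772). Ltc4s, which makes leukotriene C4, was at -0.58 ± 0.26 (adjusted p = 0.691). Gcnt2, a glycosyltransferase that branches poly-lactosamine chains and belongs to no list, rose from 10.4, 33.4, 17.1 and 18.1 in sham to 56.2, 65.5 and 74.8 in microbead (1.71 ± 0.32, adjusted p = 0.0192). Gcnt2 shares 16.8% of the words of its main transcript with other genes.

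Lysosomal genes included 2 that rose. Grn, progranulin, a secreted protein that works in lysosomes, stood at 892, 915, 812 and 814 CPM in sham and 1394, 1254 and 1675 in microbead (0.75 ± 0.16, adjusted p = 0.0476). Ctsl, the protease cathepsin L, was at 310, 322, 313 and 278 in sham and 680, 532 and 432 in microbead (0.84 ± 0.19, adjusted p = 0.0489). Both rose by less than 2-fold, with narrow spread among the sham libraries. Of 71 lysosome and phagocytosis genes tested these 2 were called, 0 were lower, 54 were above 0 and the median was 0.23, with -0.14 on the deposited TPM. In 16 of the 71 the microbead libraries lay wholly above sham and in 1 wholly below, against 5.01% and 4.09% of all genes. Ctsb, cathepsin B, was at 0.72 ± 0.17 (adjusted p = 0.082), and cathepsins Ctsh, Ctsc, Ctsd and Ctsa were at 0.45, 0.49, 0.43 and 0.40. The membrane proteins Lamp1 and Lamp2 were at 0.60 and 0.46, none of these called. The summed level of the list was 26370, 26460, 28040 and 25460 CPM in sham and 34290, 32260 and 34780 in microbead, groups that did not overlap.

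The disease-associated list had 44 genes tested, 1 called higher (Ctsl), 0 lower and a median of 0.37, near 0 on the deposited TPM (-0.002). Of the 44, 32 were above 0 and 12 below, and the groups did not overlap for 11 higher and 3 lower members, against 5.01% and 4.09% of all genes. Cd63, a tetraspanin of late endosomes, stood at 166, 169, 123 and 147 CPM in sham and 295, 284 and 226 in microbead (0.83 ± 0.19, adjusted p = 0.0748). Axl, a receptor for phosphatidylserine bridges, and the lysozyme Lyz2 were at 0.75 and 1.51, and the lipid droplet coat protein Plin2 at 1.31, none called. Tyrobp, the adaptor through which TREM2 signals, was at 911, 1001, 846 and 923 CPM in sham and 543, 607 and 573 in microbead (-0.68 ± 0.17, adjusted p = 0.102). Capg, an actin-capping protein, was at 53.6, 58.9, 41.02 and 43.5 in sham and 5.82, 30.4 and 26.6 in microbead (-1.20 ± 0.38, adjusted p = 0.311). For Tyrobp and Capg every microbead library lay below every sham library, while for Cd63 every one lay above. Lgals3, a galectin used as a marker of this state, was at 41.5, 0, 3.42 and 12.7 CPM in sham and 5.82, 6.39 and 23.3 in microbead, and its fold change turned sign in 5 alternatives. Spp1, osteopontin, stood at 71.9 CPM in microbead library 2 and at 0 and 1.66 in the other microbead libraries. Clec7a, Itgax and Lgals3 were not called (adjusted p = 0.795, 0.898 and 0.996).

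Zfp280d, a zinc finger gene of little-known function (ENSMUSG00000038535, chr9:72274860-72363777, plus strand), fell by 2.11 on the log2 scale (-2.11 ± 0.29 SE, adjusted p = 0.000262). It stood at 154, 182, 157 and 138 CPM in sham and 46.5, 36.7 and 26.6 in microbead, so that every microbead library was well under every sham library. Nearly all of the difference lay in 1 annotated transcript, the non-coding processed transcript Zfp280d-207. It took 75.7, 103, 80.5 and 69.7 estimated reads in the sham and 15.5, 15.2 and 0 in the microbead libraries. The other 20 transcripts of the gene together took 13, 10.8, 11.3 and 6.02 reads in sham and 8.95, 8.03 and 16.5 in microbead, ranges that overlap. Zfp280d-207 has 412 bases in 3 exons (chr9:72312101-72312248, chr9:72312651-72312760 and chr9:72313525-72313678). Within exon 3 of it 110 of 124 words of 31 bases also occur in transcripts of other genes, 2290 genes in all, against 0 of 118 and 0 of 80 within exons 1 and 2. The part of such repeated sequence in the fall was not tested. In APOE3 libraries the same transcript took 39.5 to 71.6 reads in sham and 52.2 to 79.8 in microbead.

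**Figure D2:**
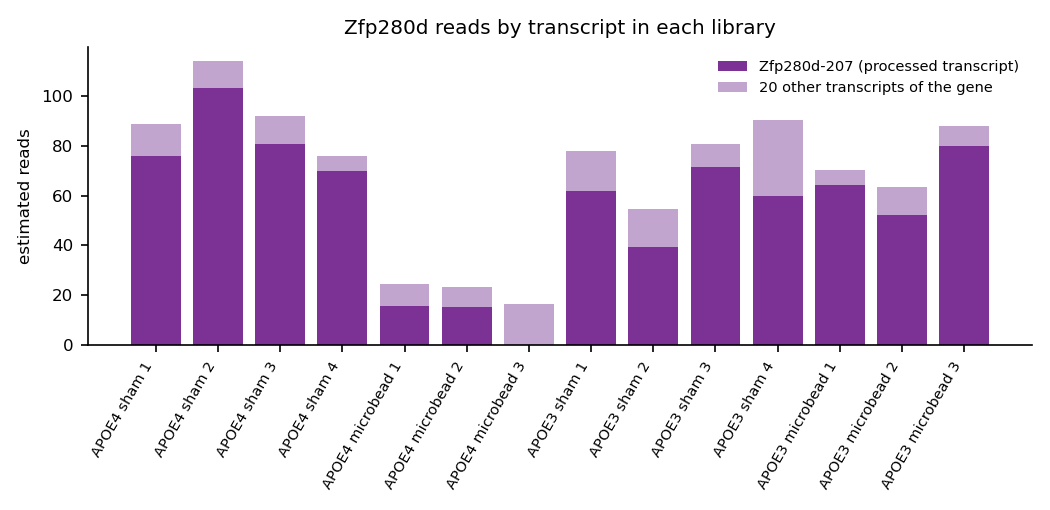
Estimated reads (not scaled for depth) of Zfp280d in each of the 14 libraries, split into the processed transcript Zfp280d-207 and the other 20 transcripts of the gene. The 3 APOE4 microbead libraries hold 0 to 15.5 reads of Zfp280d-207 and the other 11 libraries at least 39.5.

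Genes of the homeostatic state showed no call in either direction among 57 tested. Of these, 24 lay above 0 and 33 below, the median was -0.05, and the groups did not overlap for 6 higher and 6 lower members, against 5.01% and 4.09% of all genes. Cst3, the protease inhibitor cystatin C and one of the most abundant microglial transcripts, stood at 12080, 11790, 12080 and 11240 CPM in sham and 6489, 8171 and 6592 in microbead (-0.74 ± 0.21, adjusted p = 0.216). Its groups did not overlap, and it carried the difference in the list's summed level. That level was 38570 ± 2330 CPM (SD, n = 4) in sham and 34300 ± 815 (SD, n = 3) in microbead, groups that did not overlap. With Cst3 left out, the other homeostatic genes summed to 26770 ± 2137 CPM (SD, n = 4) in sham and 27220 ± 1636 (SD, n = 3) in microbead. Fcrls, the receptor used for the sort, was at 74.3, 86.0, 108 and 132 CPM in sham and 221, 185 and 121 in microbead (0.81 ± 0.25, adjusted p = 0.295), and the neuron navigator Nav3 at 0.58 ± 0.21 (adjusted p = 0.461). Rhob, a small GTPase, was at -0.84 ± 0.28 (adjusted p = 0.357). Tmem119 stood at 1451, 1524, 1504 and 1224 CPM in sham and 932, 1359 and 1484 in microbead (-0.18 ± 0.21, adjusted p = 0.955), with only library 1 below the sham range. The 19 genes of the TGF-beta pathway had a median of -0.01 and 0 calls; the receptor Tgfbr1 was at -0.25 ± 0.20 and the ligand Tgfb1 at -0.71 ± 0.40 (adjusted p = 0.922 and 0.835). The 24 transcription factors of microglial identity had a median of -0.11 and 0 calls, with Mef2c at -0.41 ± 0.21 and Rbpj, which acts downstream of Notch, at 0.55 ± 0.27.

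**Figure D3:**
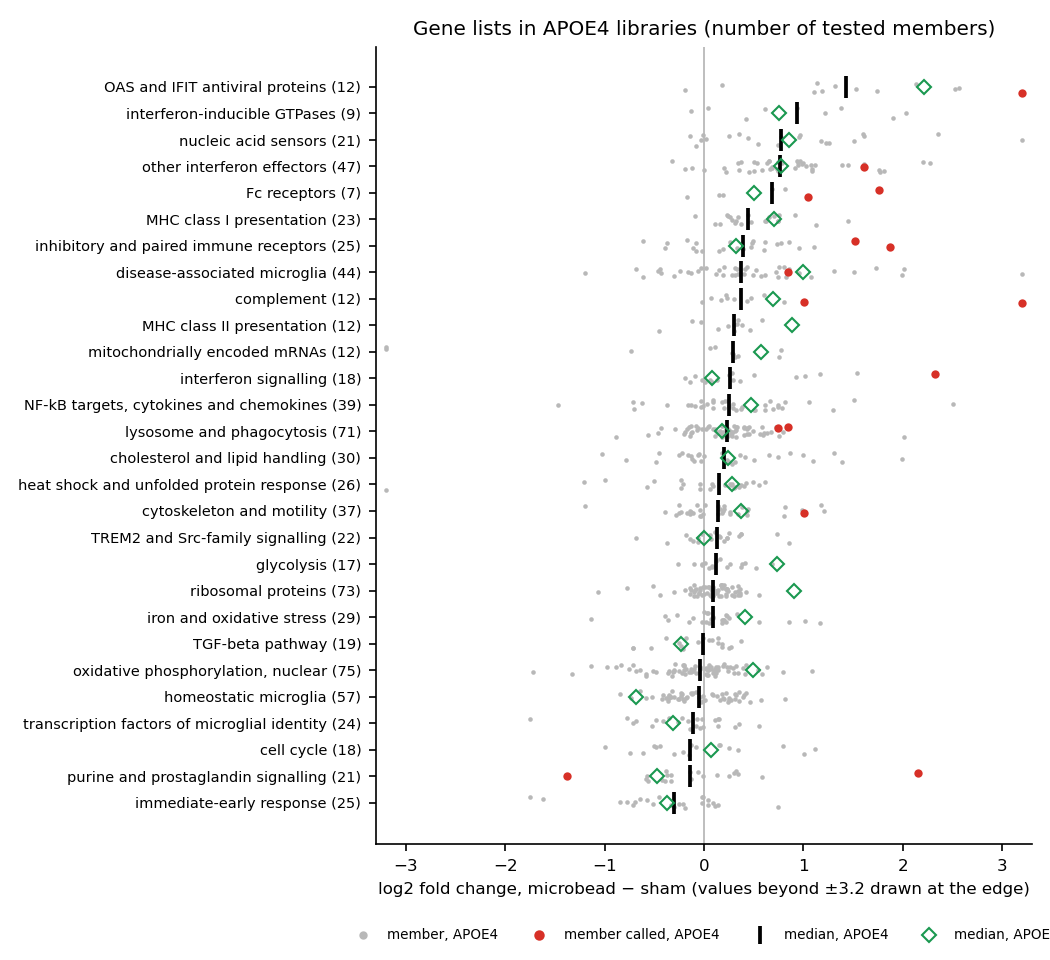
Log2 fold change, microbead minus sham, of the tested members of each gene list in APOE4 (grey points; red where called), with the list median in APOE4 (black bar) and in APOE3 (green diamond); values beyond 3.2 in size are drawn at the edge. The 4 lists with the highest APOE4 medians are interferon lists, and the homeostatic list lies near 0 in APOE4 (-0.05) and at -0.68 in APOE3.

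The 10 higher genes next in order of p, none of which passed the test, were Cxcl16, Ifi213, Cd63, Irgm1, Spint1, Ctsb, Hcar2, Ccl12, Slc2a6 and Tmem176a. Cxcl16, a membrane-bound chemokine and scavenger receptor, stood at 38.04, 38.2, 53.0 and 47.2 CPM in sham and 95.0, 81.5 and 99.7 in microbead (1.06 ± 0.25, adjusted p = 0.0739). Ccl12, a chemokine that attracts monocytes, was at 46.7, 28.7, 63.2 and 34.5 in sham and 163, 230.0 and 346 in microbead (2.51 ± 0.50, adjusted p = 0.082). In both genes the groups were well apart. The protease inhibitor Spint1 (0.95 ± 0.23), the niacin receptor Hcar2 (1.41 ± 0.34), the sugar transporter Slc2a6 (1.36 ± 0.33) and the membrane protein Tmem176a (1.22 ± 0.29) each had an adjusted p of 0.082. NF-kB targets, cytokines and chemokines as a list had 39 genes tested, 0 called and a median of 0.25, with -0.13 on the deposited TPM.

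The 10 lower genes next in order of p, none of which passed the test, were Tyrobp, Dusp7, Hsp90aa1, Dnajb1, Smarce1, Usp25, Tmem201, Adamts16, Cst3 and Fam102b. Hsp90aa1, an inducible chaperone, stood at 88.2, 65.3, 58.1 and 76.2 CPM in sham and 27.1, 25.6 and 39.9 in microbead (-1.21 ± 0.33, adjusted p = 0.171). The co-chaperone Dnajb1 was at 121, 73.2, 106 and 68.9 in sham and 50.4, 39.9 and 48.2 in microbead (-0.999 ± 0.277, adjusted p = 0.191). Hspa1a, a stress-induced Hsp70 whose near-identical copy Hspa1b can take its reads, was at 29.4, 19.1, 56.4 and 47.2 in sham and 7.75, 0 and 0 in microbead. For these 3 chaperones no microbead library reached the sham range, and none passed the test. Of the 26 genes of the heat shock and unfolded protein list, 16 were above 0 and 10 below, 0 were called and the median was 0.15. The protein disulfide isomerase Pdia6 was at 0.61 ± 0.24 (adjusted p = 0.58). Immediate-early genes, which respond within minutes and also to cell isolation, had a median of -0.30 over 25 genes with 0 called, and their sum ranged from 1414 to 4278 CPM in sham and from 1364 to 3412 in microbead. Further lower genes were the phosphatase Dusp7 (-1.66 ± 0.45, adjusted p = 0.171), Tmem201 of the inner nuclear membrane (-1.75 ± 0.50, adjusted p = 0.215), the chromatin remodelling subunit Smarce1 (-1.94 ± 0.54, adjusted p = 0.191), the protease Adamts16 (-1.45 ± 0.42, adjusted p = 0.216) and Fam102b (-1.03 ± 0.30, adjusted p = 0.216). Usp25, a deubiquitinase, had 28 reads over the sham libraries, with 0 in library 1, and 0 over the microbead libraries. Its groups overlapped, and it did not pass the test (adjusted p = 0.1998). Against a floor of 3 reads over the group, its pooled reads were at least 6.95-fold lower. That ratio leaves out the spread between libraries.

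Metabolic and growth lists had no gene called, apart from Itgam in the cytoskeleton list. Cholesterol and lipid handling had a median of 0.21 over 30 genes (-0.01 with library totals and -0.25 on TPM), with the sterol exporters Abcg1 at 1.39 ± 0.42 and Abca1 at 1.00 ± 0.31 and the sterol esterifying enzyme Soat1 at 0.74 ± 0.23 (adjusted p = 0.265, 0.27 and 0.27). Ribosomal protein genes had a median of 0.09 over 73 genes, nuclear genes of oxidative phosphorylation -0.04 over 75, glycolysis 0.12 over 17, cell cycle -0.14 over 18, iron and oxidative stress 0.09 over 29 and cytoskeleton 0.15 over 37, in the last of which Itgam was the 1 gene called. Those of glycolysis, iron and oxidative stress, cytoskeleton and ribosomal proteins were below 0 with library totals. TREM2 and Src-family signalling had a median of 0.13 over 22 genes, -0.08 with library totals, and 0 called. Mitochondrially encoded mRNAs had a median of 0.29 over 12 genes. Among these, mt-Co2 stood at 135 and 190 CPM in sham libraries 1 and 3 and at 0 in the other 5 libraries. Near-identical copies of these genes lie in the nuclear genome, so their values are uncertain.

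Values for single transcripts are the estimated split of a gene's reads and are given as descriptions. For Oas2, the coding transcript Oas2-202 took 0 reads in sham and 122 in microbead, and Oas2-201 took 16.2 and 99.0. For Irf7, the coding transcript Irf7-201 took 0 and 67.8 and the retained-intron transcript Irf7-210 took 16.8 and 72.1. Hpgd, Fcgr4 and Fgl2 each had all of their reads on 1 coding transcript, with 196 and 55.0, 62.0 and 157, and 21.0 and 82.0 reads in sham and microbead.

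The same comparison in APOE3 libraries, which share no library with it, called 395 of 7609 genes (5.19%), 268 higher (3.52%) and 127 lower (1.67%). Of the 17 genes called in APOE4, 15 were also called there and 16 had the same sign. Both comparisons came from the same fit, with a shared estimate of the spread, so this overlap of calls is not independent. Grn did not pass in APOE3 (0.49, adjusted p = 0.0899), and Zfp280d was at 0.01. The size of the log2 fold change was smaller in APOE4 than in APOE3 for 10 of the 17. The 17 were chosen by their APOE4 values, so this count does not compare the genotypes. Shares of all genes for sign and size are not given here. The difference itself was tested as the interaction, which called 7 of 7609 genes (0.092%), 2 of the 17 among them. Zfp280d differed by -2.12 (adjusted p = 0.0155): in APOE3 it was at 129, 92.9, 158 and 104 CPM in sham and 152, 67.4 and 150.3 in microbead. Hpgd differed by 2.59 (adjusted p = 0.0208), falling from 99.1, 101, 60.6 and 125 CPM in APOE3 sham to 4.35, 6.42 and 6.83 in APOE3 microbead, far below its APOE4 microbead levels. For the other 15 the interaction gave an adjusted p of 0.208 (Cd72) to 0.98 (C4b), which does not show that the responses were alike. Cd72 was at 1.52 in APOE4 and 2.99 in APOE3, C4b at 4.52 and 4.72, and Irf7 at 2.33 and 2.63 on the log2 scale. The interaction called 0 genes without APOE4 sham 1, APOE4 sham 2 or APOE4 microbead 1, and 0 with length offsets, where 623 had an unadjusted p under 0.05 with all libraries and DESeq2 called 58.

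**Figure D4:**
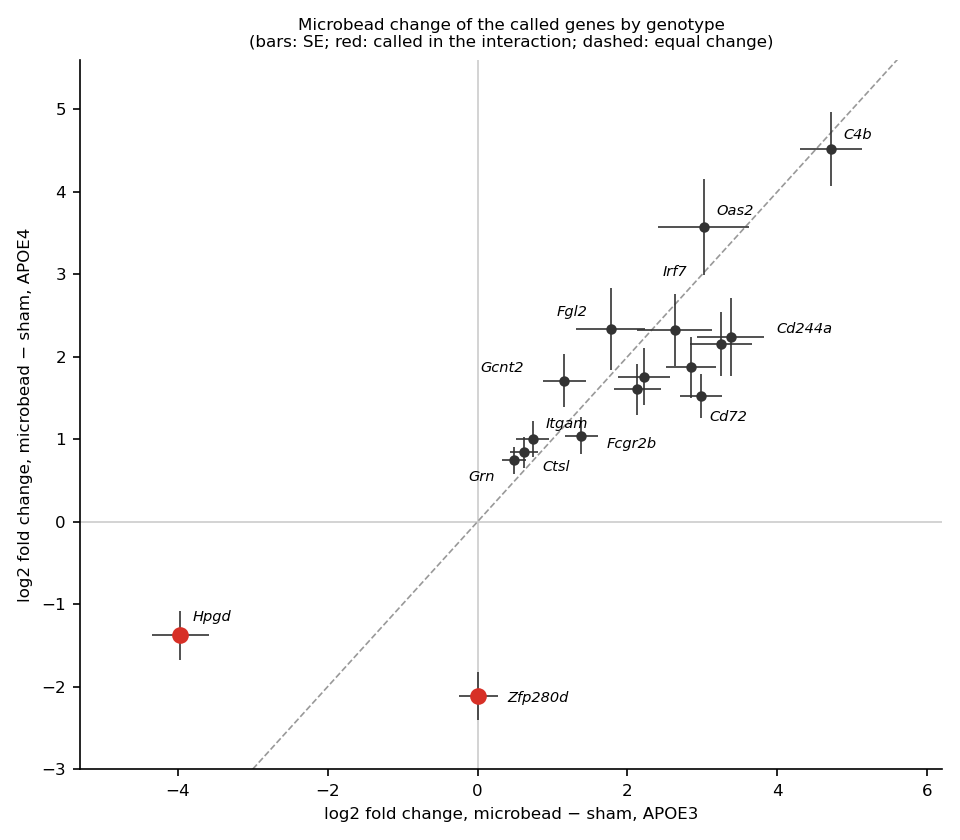
Log2 fold change, microbead minus sham, of the 17 genes called in APOE4, with APOE3 on the horizontal and APOE4 on the vertical axis; bars are SE, the dashed line marks equal change, and red points passed the interaction test. Zfp280d (0.01 in APOE3, -2.11 in APOE4) and Hpgd (-3.97 and -1.38) lie farthest from the line.

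Set side by side, list medians in APOE4 and APOE3 were 1.43 and 2.21 for OAS and IFIT genes, 0.76 and 0.78 for other interferon effectors, 0.45 and 0.70 for class I presentation, 0.37 and 0.99 for disease-associated genes, -0.05 and -0.68 for homeostatic genes and 0.09 and 0.90 for ribosomal proteins. The APOE4 median was the larger one for the interferon-inducible GTPases (0.94 and 0.76), interferon signalling (0.26 and 0.08), Fc receptors (0.69 and 0.50), lysosome and phagocytosis (0.23 and 0.18), inhibitory receptors (0.40 and 0.32) and TREM2 signalling (0.13 and 0.005). Among lists below 0 in both, it was also less negative for the TGF-beta pathway (-0.011 and -0.231) and purine and prostaglandin signalling (-0.144 and -0.47). The same held for transcription factors of microglial identity (-0.11 and -0.315) and immediate-early genes (-0.302 and -0.368). The APOE3 median of all genes is not given here. Of the 44 disease-associated genes 1 was called higher in APOE4 and 24 in APOE3, where 0.197% and 3.52% of all genes were. Of the 57 homeostatic genes 0 were called lower in APOE4 and 24 in APOE3, where 0.0263% and 1.67% of all genes were, so a count of 0 in APOE4 is near the background. No difference between these medians was tested. Single members bear values such as P2ry12, with an interaction of 1.398 (adjusted p = 0.0596), and Tyrobp, with -1.04 (adjusted p = 0.074). Capg, which was not called in APOE4, passed the interaction (-2.72, adjusted p = 0.0155), with 26.4, 32.1, 39.1 and 55.3 CPM in APOE3 sham and 161, 87.7 and 92.2 in APOE3 microbead.

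**Figure D5:**
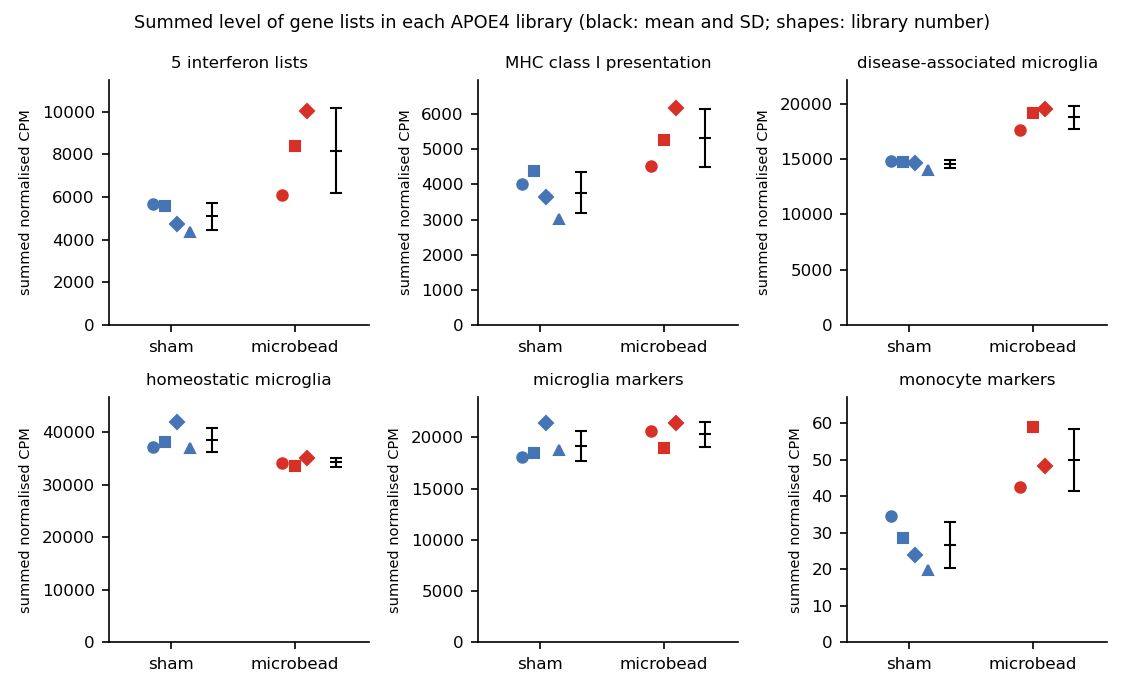
Summed normalised CPM of 6 gene lists in each APOE4 library (blue, sham, n = 4; red, microbead, n = 3), with mean and SD in black. The interferon, class I, disease-associated and monocyte sums are higher, and the homeostatic sum lower, in every microbead library than in any sham library. Microbead library 1 is the lowest microbead library in the interferon sum, and microglial markers overlap.

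Markers of other cells were low. Of 10 monocyte markers none had enough reads to be tested, and together these markers came to 34.6, 28.7, 23.9 and 19.95 CPM in sham and 42.6, 59.1 and 48.2 in microbead, groups that did not overlap. Ly6c2, the antigen gated against, had 6 reads in sham and 1 in microbead, and Ccr2 had 6 and 20. The part of these cells in the results above was not tested. Rod photoreceptor markers summed to 2104, 576, 788 and 648 CPM in sham and 804, 428 and 957 in microbead, so sham library 1 stood apart in that sum, and 0 of 16 tested were called. The sums were 33.2 ± 13.3 CPM in sham and 42.4 ± 28.4 in microbead for border macrophages, 167 ± 19.9 and 183 ± 22.6 for Muller glia, and 277 ± 41.2 and 200.2 ± 39.1 for B cell markers. The B cell sum did not overlap between groups, and its defining marker Cd79a was at 0 in all 7 libraries. Ganglion cell markers (46.02 ± 13.1 and 30.5 ± 3.08) and pigment epithelium markers (14.5 ± 3.92 and 7.92 ± 2.08) were also lower in every microbead library than in any sham library. These sums rest on few reads. Of the markers, 2 of 7 for ganglion cells and 0 of 6 for pigment epithelium had enough reads to be tested. The 2 tested, Thy1 and Rbpms, overlapped between groups and were not called. T cell, NK cell, neutrophil and astrocyte markers each summed to at most 31.9 CPM in any of the 7 libraries.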

How the data were processed

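RNA from sorted retinal microglia was quantified by the authors with Salmon 1.4.0 against mm10, per the submitters' processing notes, which also name R 4.0.3 and DESeq2 1.30.1; the annotation is not given in the sources used here. The deposited files hold estimated counts per transcript of each library, and a deposited table holds TPM per gene (abundance scaled for length and depth). Recomputed TPM lay within 1% of each library's own column for 99.2% to 99.4% of genes, while no column of a different library reached more than 2.11%. Of 116945 transcripts, 116023 were matched to GENCODE M21 genes (GRCm38) by identifier without version, and 922 were not. Counts were summed per gene and rounded.

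Genes were kept with filterByExpr of edgeR 4.0.16 (R 4.3.3; minimum count 10, minimum total 15). Groups were compared with edgeR's quasi-likelihood test, robust, with TMM scaling and 4 group means over all 14 libraries, so that the spread was estimated from 4 groups. Tests were two-sided, with Benjamini-Hochberg adjustment over 7609 genes, and a call means adjusted p under 0.05. The common biological coefficient of variation was 0.275. SE was derived from the F statistic. The fit was tested on simulated data. Strand was not given in the sources used here, so overlapping antisense genes cannot be told apart. The members and gene lists were chosen with earlier results of these data known, and lists are therefore described by counts and medians without a test. Named genes were up to 20 called genes per direction, up to 10 per direction next in order of p, up to 4 per list by p, and 11 genes set by hand (sort markers Itgam, Fcrls and Ly6c2; homeostatic Tmem119, P2ry12 and Tgfbr1; disease-associated Spp1, Clec7a, Lgals3, Itgax and Apoe), without predicted genes, pseudogenes or sex-linked genes; members of described lists given only as a fold change were chosen after their values were seen. Alternatives were DESeq2 1.42.0, limma-voom (limma 3.58.1), DESeq2 size factors, library totals, satellite genes left out, no filter, a minimum count of 20, transcript length offsets, limma on log2(TPM + 1), the replicate number as a block, only the 7 libraries compared and leaving out each of 14 libraries. The depth of 453429 to 730134 reads a library limits precision for genes of few reads. The values of 1 list member are not reported here.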

Additional observations from a re-analysis of the deposited data

Results flagged for a closer look

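The interaction test called 3 of the 123 named genes, and 7 of all 7609 tested (0.092%). The 3 were Zfp280d (APOE4 minus APOE3, -2.12), Hpgd (2.59) and Capg (-2.72). The named genes were chosen in part by their p in APOE4, which enters this test. No gene was called in the interaction with length offsets, or without APOE4 sham 1, APOE4 sham 2 or APOE4 microbead 1.

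In 7 of the 123 named genes 1 sham library lay far from the other 3, a distance that chance gives in about 1 of 20 groups of this size. APOE4 sham 1 was high for Oas2 (24.2 CPM), APOE4 sham 2 for Gbp2 (9.55), APOE4 sham 3 for Soat1 (78.6) and Klf2 (53.0), and APOE4 sham 4 for Ltc4s (90.7) and Rbpj (45.3). APOE4 sham 4 was low for Itgb2 (176).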

How the results depend on the processing

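For APOE4 microbead against sham, the count of 17 became 34 with DESeq2 (adjusted over 4215 genes, all 17 shared), 10 with limma-voom, 3 with library totals, 53 without a filter on low counts (28197 genes), 5 with length offsets, 2 with limma on the deposited TPM and 47 with only the 7 libraries compared (6138 genes, 15 shared). It was 2 to 17 when each library was left out. In none of the 25 alternatives did C4b or Zfp280d lose significance, while each of the other 15 lost its call in 8 to 17. For APOE3 the count of 395 became 151 with library totals, 223 with length offsets, 40 on TPM and 230 with only the libraries compared, and was 225 (without APOE3 microbead 2) to 476 with a library left out. For the interaction of genotype and microbead, the count of 7 became 58 with DESeq2 (adjusted over 1117 genes), 2 with library totals, 29 without a filter, 11 with a stricter filter, 0 with length offsets, 3 on TPM and 0 to 30 with a library left out: 3 without APOE3 sham 1 or APOE3 microbead 1, 4 without APOE3 microbead 2 or APOE4 microbead 3, and 30 without APOE3 microbead 3.

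With the replicate number as a block, the counts were 5 in APOE4 and 3 in the interaction. The labels do not say that a number marks shared animals, and same-numbered APOE4 sham and microbead libraries deviated together with correlations of -0.033, -0.027 and 0.019, so the numbers were not taken as pairs.

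Fold changes of genes that were not called turned sign on the deposited TPM for Nav3 (-0.20), Itgb2 (-0.29), Rbpj (-0.82, and -0.61 with length offsets), Rpl11 (-0.082), Tpi1 (-0.058), Itgax (-0.12), Cd86 (-0.22), mt-Co1 (-0.064), Pfkl (-0.28) and H2-DMb1 (-0.011). Tmem119 ranged from -0.315 to 0.001 (without APOE4 microbead 1) with a library left out, and Lgals3 from -1.185 to 1.192. Lgals3 was at 0.83 with limma-voom, 0.11 with the replicate block, 1.19 without APOE4 sham 1, 0.058 without APOE4 microbead 1 and 0.083 without APOE4 microbead 2. The cause of these changes was not tested. The 237864 to 289398 reads a library outside satellite genes limit what can be called among genes of few reads.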

Other observations

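Within the 7 APOE4 libraries, the first principal component of log2 CPM held 21.6% of the variance, with the microbead libraries at 16.98, 16.6 and 30.8 and the sham libraries at -11.8, -4.71, -19.6 and -28.3. The microbead libraries were not ordered alike across gene lists. Library 1 had the lowest sum of interferon genes (6074 CPM, against 8390 and 10020) and the highest sums of class II presentation genes (5196, against 5092 and 4531), Fc receptors (1847, against 1687 and 1612) and ribosomal proteins (12870, against 10840 and 10770).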
